A study of Homo sapiens with 8 samples.

Results

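The AP-1 and early growth response factors described here are FOS, FOSB, FOSL1, FOSL2, JUN, JUNB, JUND, ATF3 and EGR1. They were chosen by name but, like the gene lists below, with earlier results of these data known. All 9 were found among the 56632 genes of the deposited table, of which 29419 had a count in at least 1 library, and all 9 passed the filter on low counts. RNA was measured in 4 human mammary epithelial cell lines of the MCF10A progression series, with 2 libraries for each line and 8 libraries in all. M1 is MCF10A, a spontaneously immortalized line that does not form tumours. M2 is MCF10AT1k.cl2, a derivative that carries the T24 HRAS oncogene and had been passed through mice. When M2 cells are grafted into mice some grafts become carcinomas, and such tumours gave rise to the lines MCF10Ca1h, here M3, and MCF10CA1a.cl1, here M4. All cultures were grown as acini on growth-factor reduced Matrigel for 8 days, in medium with 2% horse serum, hydrocortisone, cholera toxin and insulin. M1 and M2 also received 10 ng/ml epidermal growth factor (EGF) and M3 and M4 did not, so the presence of EGF, the origin from a carcinoma and the line itself cannot be told apart in any comparison of M3 or M4 with M1 or M2. Each stage was represented by 1 cell line. The study's methods state that medium was changed every 4th day, but the exact time from the last change to harvest is not given in the sources used here.

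AP-1 is a dimeric transcription factor that pairs a JUN protein with a FOS, ATF or another JUN protein through leucine zippers and binds the AP-1 site or the related cyclic AMP response element. Most of its genes, like EGR1, are immediate early genes, which mitogens such as EGF and signalling through RAS and the mitogen-activated protein (MAP) kinases switch on within minutes and which then decay, so their RNA at harvest is a single point of a fast course. The FOS-related proteins differ in function: FOS and FOSB carry strong activation domains, whereas FOSL1 (Fra-1) and FOSL2 (Fra-2) lack them. FOSL1 is long-lived when ERK is active and is known for its role in migration and invasion of breast epithelial cells. JUN needs N-terminal kinase signalling for full activity, JUNB and JUND often counter it in growth control, ATF3 is a stress-induced ATF/CREB protein that dimerizes with JUN, and EGR1 is a zinc finger factor that binds GC-rich sites.

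The 9 genes lie on 6 chromosomes of the GRCh37 build. FOS occupies chromosome 14 from 75745529 to 75748933 and has 4 exons in its canonical transcript. FOSB is on chromosome 19 (45971253 to 45978437), FOSL1 on chromosome 11 (65659520 to 65668044) and FOSL2 on chromosome 2 (28615315 to 28640184), each with 4 exons. JUN on chromosome 1 (59242517 to 59249720), JUNB on chromosome 19 (12902300 to 12904129) and JUND on chromosome 19 (18390504 to 18392432) are single-exon genes. ATF3 on chromosome 1 (212738676 to 212794119) has 4 exons and EGR1 on chromosome 5 (137801168 to 137804992) has 2. Reads were counted over exons without a stated use of strand. JUNB shares 259 exon bases with HOOK2, a gene on the opposite strand with up to 4269 counts in a library, so its values are uncertain, and the other 8 genes share no exon bases with another gene of the table.

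Promoter sequence is shown for JUN and ATF3, which were both called in M4 against each other line, for FOS, which was called lower in M4 than in M2 and M3, and for EGR1, whose window held CArG boxes. RefSeq windows on GRCh38.p14 were at hand for 8 of the 9 genes (9 windows, since 2 annotated starts were listed for ATF3), and FOSL1 had no entry. Whether the ATF3 RNA of these lines began at either start was not tested. Each sequence is the 150 bases before the start site on the gene's own strand, with motif matches in capitals. The capitals mark TGACATCA in JUN and ATF3, TATAAA in FOS, and the CArG box, which serum response factor binds, in EGR1.
JUN, chr1:58784048-58784197, minus strand: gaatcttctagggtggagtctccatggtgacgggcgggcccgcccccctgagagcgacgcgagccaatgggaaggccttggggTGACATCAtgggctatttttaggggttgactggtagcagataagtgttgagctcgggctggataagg
ATF3, upstream start site, chr1:212565257-212565406, plus strand: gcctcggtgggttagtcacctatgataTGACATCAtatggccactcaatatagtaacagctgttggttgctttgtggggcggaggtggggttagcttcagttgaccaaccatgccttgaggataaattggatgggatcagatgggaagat
FOS, chr14:75278678-75278827, plus strand: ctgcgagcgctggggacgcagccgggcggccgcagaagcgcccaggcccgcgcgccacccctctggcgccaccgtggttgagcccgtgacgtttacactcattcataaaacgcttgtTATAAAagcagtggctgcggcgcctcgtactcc
EGR1, chr5:138465329-138465478, plus strand: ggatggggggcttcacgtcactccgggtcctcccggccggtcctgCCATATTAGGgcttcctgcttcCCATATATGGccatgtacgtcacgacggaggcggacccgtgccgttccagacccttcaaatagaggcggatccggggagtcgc
TGACATCA, a variant of the cyclic AMP response element TGACGTCA that was searched only after the sequences had been seen, lay 67 to 60 bases before the JUN start and 123 to 116 bases before the upstream ATF3 start. Among all 35116 RefSeq windows of the same 300 bases (250 before to 50 after a start), 2.61% held it on either strand. EGR1 held 2 CArG boxes, at bases -105 to -96 and -83 to -74, a motif found in 1.29% of windows, and a GCGNGGGCG match, the site EGR proteins bind, at -198 to -190 (9.43% of windows). TATAAA stood 33 to 28 bases before the FOS start, 30 to 25 before that of FOSB and 31 to 26 before that of JUNB, and again at -230 to -225 of the downstream ATF3 start (11.5% of windows). TGACGTCA was found only before JUND (-200 to -193, 1.85% of windows) and the AP-1 site TGANTCA only after the FOSL2 start (bases 5 to 11, 7.71% of windows). No 2 of these motifs overlapped, and a match describes letters in a window, not a bound site.

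The libraries held between 69669970 and 107350344 counts, and no member fell below 100 counts in any of them. All 6 basal and all 5 epithelial marker genes exceeded 1 CPM (counts scaled to a common library size) in every library, whereas 4 of 6 fibroblast markers (COL1A2 at 0) and 4 of 5 leukocyte markers stayed under 1 CPM in every library, with summed levels of 6.43 to 74.4 and 1.09 to 24.8 CPM. The 2 M2 libraries were far closer to each other than those of any other line (a single coefficient of variation fitted over all genes, 0.058, against 0.271 to 0.377). The study's own records assign the library labelled M1 replicate 2 to M2 and the library labelled M2 replicate 1 to M1. The labels were used here, and for members the calls that change when these libraries are exchanged are given both ways. The study calls the replicates biological, but the labels do not tie them to separate cultures, so p-values measure the spread between these libraries. That spread was estimated for each gene over all 4 lines together. The close M2 pair lowers it, so p-values can be too small for the more variable lines. HRAS, the transfected gene of M2 and its descendants, was at 154.1 and 138.7 CPM for M1, 159.8 and 153.5 for M2, 269.3 and 327.1 for M3 and 335.2 and 352.4 for M4. By the edgeR test described below it was not called between M2 and M1 (1.07-fold, adjusted p = 0.736). It was called higher in M3 than in M1 (2.04-fold, adjusted p = 0.0038). M4 was called higher than M1 (2.35-fold, adjusted p = 0.00119) and M2 (2.19-fold, adjusted p = 0.00261). M3 against M2 missed the 2-fold limit (1.90-fold, adjusted p = 0.0144), and M4 against M3 was not called (1.15-fold, adjusted p = 0.364).

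FOSL1 was the member called in the most comparisons of lines (5 of 6), and ATF3 the member with the largest difference. A gene was called where the adjusted p of edgeR's quasi-likelihood test over all 18431 tested genes was under 0.05 and the difference exceeded 2-fold. In M2 against M1 the test called 1 of the 9 members (FOSL1, higher), against 3.37% of all tested genes. In M3 against M1 it again called FOSL1 alone (13.5% of all genes), and likewise in M3 against M2 (4.15% of all genes). In M4 against M1 it called 4 members, FOSB, FOSL1, JUN and ATF3, all higher (20.7% of all genes). In M4 against M2 the same 4 were higher and FOS was lower (13.9% of all genes). In M4 against M3 JUN, JUND and ATF3 were higher and FOS was lower (10.3% of all genes). The comparisons share libraries and are not independent of one another, and in bulk RNA fewer cells carrying a transcript and less of it in each cell cannot be told apart.

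**Figure D1:**
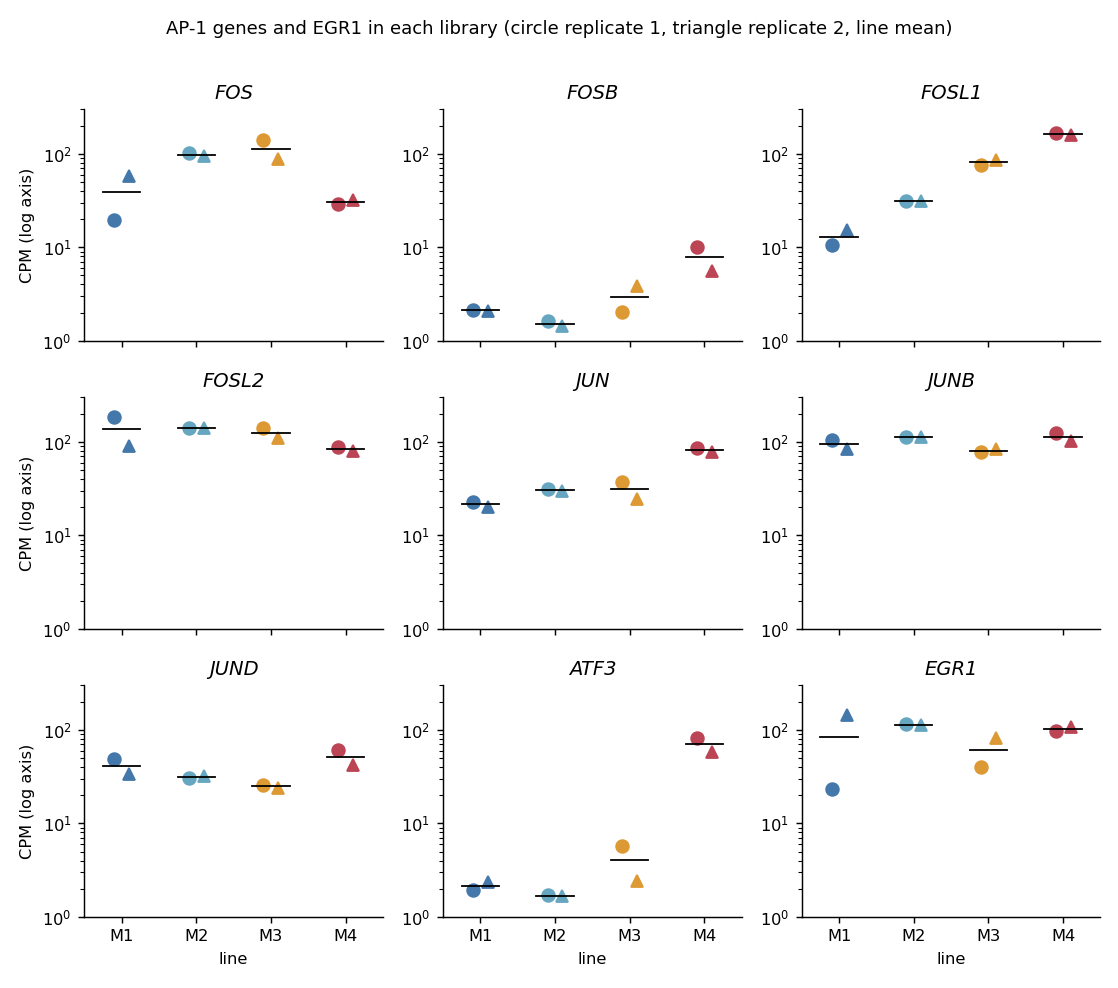
Level of each AP-1 gene and EGR1 in every library, in CPM on a log axis, with replicate 1 as a circle, replicate 2 as a triangle and the mean of the line as a bar. FOSL1 runs from 10.6 CPM in M1 replicate 1 to 166.7 CPM in M4 replicate 1, ATF3 is at 57.8 CPM or more in M4 and at most 5.73 CPM elsewhere, and EGR1 and FOS are split between the M1 libraries.

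FOSL1, the Fra-1 gene, stood at 10.6 and 15.4 CPM for M1, 31.0 and 31.3 for M2, 76.2 and 86.6 for M3 and 166.7 and 158.1 for M4. The libraries of the 4 lines did not overlap and the order of the levels was M1, M2, M3, M4. FOSL1 was 2.40-fold higher in M2 than in M1 (log2 difference 1.26 ± 0.188 SE, adjusted p = 0.013), 2.61-fold higher in M3 than in M2 (1.39 ± 0.188, adjusted p = 0.00793) and 12.5-fold higher in M4 than in M1 (3.65 ± 0.205, adjusted p = 9.62e-05). M3 exceeded M1 by 6.28-fold (2.65 ± 0.196, adjusted p = 0.000425) and M4 exceeded M2 by 5.21-fold (2.38 ± 0.193, adjusted p = 0.000551). M4 exceeded M3 by 1.99-fold with adjusted p = 0.0131, which misses the 2-fold limit, and 6 of 12 alternative settings put it past both limits. The calls of the M2 steps needed both M2 libraries, but the size of the differences hardly changed. Without M2 replicate 1 or 2 the log2 difference of M2 against M1 was 1.28 or 1.26. That of M3 against M2 was 1.38 or 1.40. With the doubted M1 and M2 libraries exchanged, the M2 against M1 difference was 0.17 on the log2 scale (adjusted p = 1) and those of M3 against M1 and M2 were 1.97 (0.119) and 1.80 (0.142). The M4 differences from M1 and M2 were called in all 12 settings, with log2 values of 2.97 to 3.94 and 2.35 to 2.80.

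FOS, the prototype of the family, stood at 19.7 and 58.7 CPM for M1, 101.2 and 94.2 for M2, 140.1 and 88.1 for M3 and 29.3 and 32.2 for M4. The M4 libraries lay below every M2 and M3 library and between the 2 M1 libraries. FOS fell by 1.67 on the log2 scale from M2 to M4 (SE 0.468, adjusted p = 0.0422) and by 1.89 from M3 to M4 (SE 0.471, adjusted p = 0.0355). Both calls were marginal: in a fit blocked on replicate number the adjusted p was 0.0643 and 0.0552, with the exchanged libraries 0.224 and 0.14, and without any 1 of the libraries compared 0.151 to 0.178 and 0.0513 to 0.167. M2 was 2.49-fold and M3 2.91-fold above M1, with adjusted p = 0.15 and 0.0547. Both depended on the setting: over 12 alternatives the log2 difference of M2 against M1 ran from 0.34 (adjusted p = 1, with the exchanged libraries) to 2.32 (0.0139, without M1 replicate 2), and that of M3 against M1 from 0.92 (0.503, exchanged) to 2.54 (0.0037, without M1 replicate 2). DESeq2 called both (adjusted p = 0.0235 and 0.00291), as did the fit without the low-count filter, limma called the first (0.0306) and library totals the second (0.046).

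FOSB, a close relative of FOS, was scarce, at 2.13 and 2.09 CPM for M1, 1.61 and 1.42 for M2, 2.02 and 3.90 for M3 and 10.1 and 5.61 for M4. Both M4 libraries were above all others, and the M1 and M3 libraries overlapped. M4 exceeded M1 by 3.72-fold (log2 difference 1.90 ± 0.419, adjusted p = 0.0126) and M2 by 5.17-fold (2.37 ± 0.427, adjusted p = 0.0082), while M4 against M3 missed the threshold at 2.65-fold (adjusted p = 0.0542). Both calls rested on M4 replicate 1, without which the adjusted p was 0.0736 against M1 and 0.0501 against M2. The call against M1 was also lost without M1 replicate 2 (0.0532), and that against M2 without M2 replicate 1 (0.0715) or replicate 2 (0.0813).

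FOSL2, the Fra-2 gene, stood at 183.0 and 89.9 CPM for M1, 139.9 and 140.8 for M2, 140.3 and 111.0 for M3 and 88.0 and 79.2 for M4. M4 had the lowest libraries, close below M1 replicate 2, and no comparison called the gene. M4 was 1.68-fold below M2 (log2 difference -0.75 ± 0.299, adjusted p = 0.11), and without M1 replicate 2 the difference between M4 and M1 was -1.13 with adjusted p = 0.00664.

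JUN, the strongest activator of its family, stood at 23 and 20 CPM for M1, 31.3 and 29.5 for M2, 37.6 and 24.5 for M3 and 85.5 and 77.2 for M4. The M4 libraries were above all others, while those of M2 and M3 overlapped. JUN in M4 exceeded M1 by 3.78-fold (log2 difference 1.92 ± 0.214, adjusted p = 0.000844), M2 by 2.67-fold (1.42 ± 0.211, adjusted p = 0.00404) and M3 by 2.62-fold (1.39 ± 0.21, adjusted p = 0.00729). M2 and M3 differed from M1 by 1.42- and 1.45-fold without passing the test (adjusted p = 0.201 and 0.106). The only alternative that ended a JUN call was leaving out M4 replicate 1 in the comparison with M3 (adjusted p = 0.0509).

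JUNB and JUND, the other JUN genes, moved less. JUNB stood at 105.8 and 84.6 CPM for M1, 114.4 and 112.1 for M2, 78.6 and 83.1 for M3 and 123.8 and 101.8 for M4, and no comparison called it, the widest difference being 1.40-fold between M2 and M3 (adjusted p = 0.123). JUND stood at 48.4 and 33.5 CPM for M1, 30.8 and 32.4 for M2, 25.6 and 24.2 for M3 and 60.6 and 42.6 for M4. M3 was the lowest line for both genes, and for JUND the M4 and M1 libraries overlapped. JUND was 2.07-fold higher in M4 than in M3 (log2 difference 1.05 ± 0.225, adjusted p = 0.0207), close to the 2-fold limit, and the call was lost without M3 replicate 1 or 2 (adjusted p = 0.0743 and 0.0726), without M4 replicate 1 (0.118) and with the exchanged libraries (0.0667).

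ATF3, the stress-induced partner of JUN, was scarce in 3 lines and abundant in M4. It stood at 1.92 and 2.38 CPM for M1, 1.72 and 1.65 for M2, 5.73 and 2.43 for M3 and 83.1 and 57.8 for M4. The lowest M4 library was thus far above the highest library of any other line. M4 exceeded M1 by 32.7-fold (log2 difference 5.03 ± 0.433, adjusted p = 0.000344), M2 by 41.8-fold (5.38 ± 0.442, adjusted p = 0.000562) and M3 by 17.3-fold (4.11 ± 0.413, adjusted p = 0.00206). These 3 calls held in all 12 alternatives each, the log2 value against M3 ranging from 3.61 to 4.85. M3 was 1.90-fold above M1 and 2.42-fold above M2 without passing the test (adjusted p = 0.122 and 0.102), and its own libraries differed by 2.36-fold. Without M3 replicate 2 both differences were called (1.42, adjusted p = 0.0183, and 1.77, adjusted p = 0.027), and M3 against M2 was also called by DESeq2 (1.27, adjusted p = 0.0136) and without the filter on low counts (1.28, adjusted p = 1.15e-05).

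EGR1, the zinc finger factor, stood at 23.6 and 143.9 CPM for M1, 114.6 and 113.0 for M2, 40.5 and 81.8 for M3 and 97.2 and 107.9 for M4. The M1 libraries held both the lowest and the highest level of the series, and M3 lay below M2 and M4. No comparison called EGR1: the log2 differences ran from -0.90 ± 0.711 (M3 against M2, adjusted p = 0.517) to 0.75 ± 0.71 (M4 against M3, adjusted p = 0.5). The standard errors were 0.705 to 0.711, the widest of the 9 genes. Without M1 replicate 2 EGR1 was called higher in M2 (2.28, adjusted p = 0.0294) and M4 (2.12, adjusted p = 0.0124) than in M1.

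**Figure D2:**
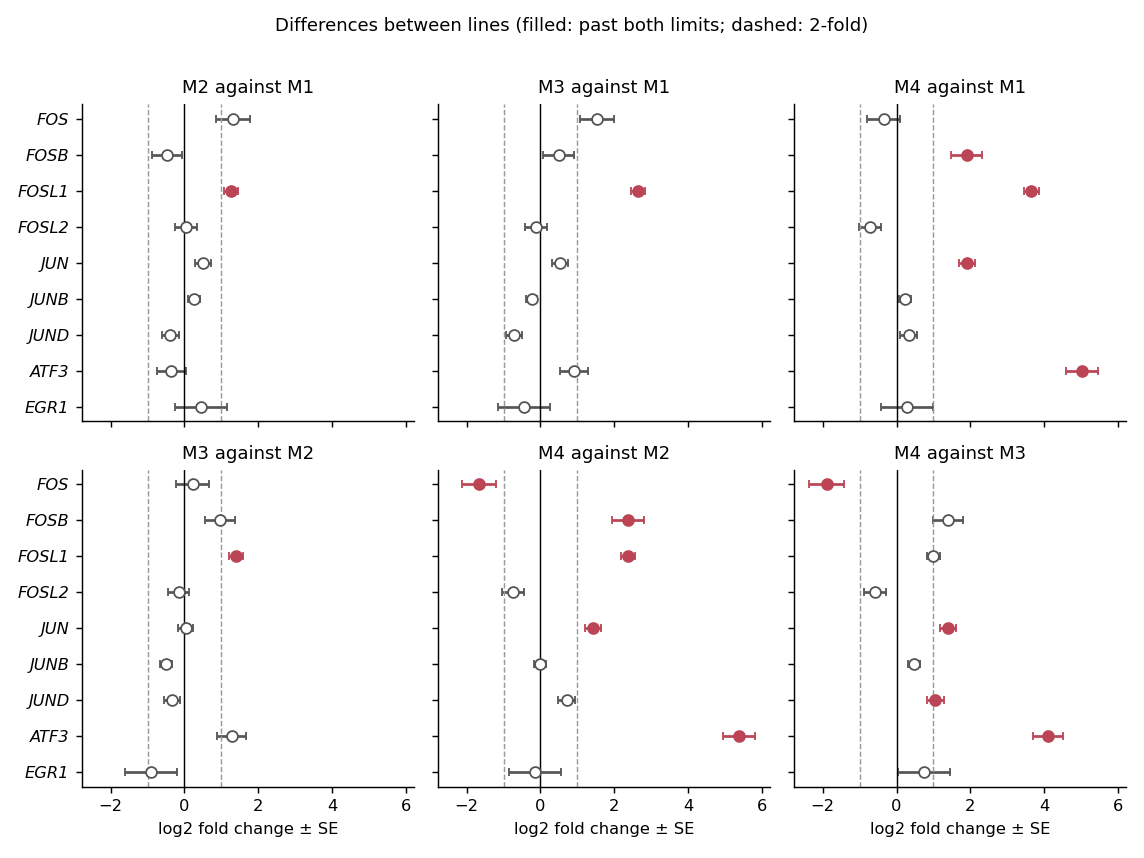
Log2 fold change of each gene in the 6 comparisons of lines, with a standard error derived from the edgeR test, where filled points passed both limits and dashed lines mark 2-fold. FOSL1 lies to the right of 0 in all 6 panels, ATF3 reaches 5.38 in M4 against M2, and EGR1 has the widest errors.

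The M1 replicates differed by 6.11-fold in EGR1 and by 2.99-fold in FOS, both higher in replicate 2. Only 1.49% and 4.2% of 13083 genes with a mean count of at least 100 differed by more between these libraries, whose median gene differed by 1.2-fold. FOSL2 went the other way, 2.04-fold higher in replicate 1. JUN, JUNB, JUND, ATF3, FOSB and FOSL1 differed between the M1 libraries by at most 1.46-fold. Of 23 other immediate early genes, 3 were over 2-fold higher in M1 replicate 1 and 3 in replicate 2, so the M1 libraries did not differ in 1 direction over that list. In M4 the widest replicate gap of a member was that of FOSB (1.79-fold), and in M3 those of ATF3 (2.36-fold) and EGR1 (2.02-fold).

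Levels per transcript length, in RPKM (CPM divided by the length of the canonical transcript in kilobases), show which gene supplied most FOS-family RNA. FOSL1 made up 14.3% and 17.7% of the summed RPKM of FOS, FOSB, FOSL1 and FOSL2 for M1, 20.8% and 21.8% for M2, 33.7% and 46.1% for M3 and 76.7% and 76.5% for M4. FOS gave 55.0% and 53.0% for M2, 50.1% and 38.0% for M3, and 10.9% and 12.6% for M4. In M1 the leading gene differed between the libraries, FOSL2 with 62.9% in replicate 1 and FOS with 54.9% in replicate 2. FOSB never exceeded 2.09%. The summed RPKM of the family was 43.4 and 50.9 for M1, 87.6 and 84.5 for M2, 132.8 and 110.3 for M3 and 127.6 and 121.5 for M4, so M3 and M4 had similar sums with a different composition. Lengths taken over the union of all exons, a choice made after the data were seen, gave FOSL1 79.1% in both M4 libraries and FOS 42.2% and 30.8% in M3, where FOSL1 then led FOS in replicate 2 as before. These shares are RNA levels and no measure of protein.

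Within the JUN family JUNB gave the largest share in every library, from 54.0% to 71.0% of the summed RPKM. The share of JUN was 7.86% and 8.79% in M1 and 21.0% and 23.4% in M4, with 10.9% and 10.4% in M2 and 17.0% and 11.5% in M3. JUND gave 18.1% to 27.9%. JUNB at a mean of 61.6 RPKM in M4 stood beside FOSL1 at 95.4, ATF3 at 36.3, EGR1 at 32.7, JUND at 26.7 and JUN at 25 RPKM, whereas in M1 the corresponding means were 52.0, 7.61, 1.11, 26.7, 21.2 and 6.6 RPKM. With union-exon lengths ATF3 in M4 was at 17.6 RPKM, below EGR1 (32.7), JUND (26.7) and JUN (22.5), so its place among them depends on the length used. FOSL1 was thus the most abundant of the 9 transcripts per length in M4, and JUNB in M1 and M2.

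**Figure D3:**
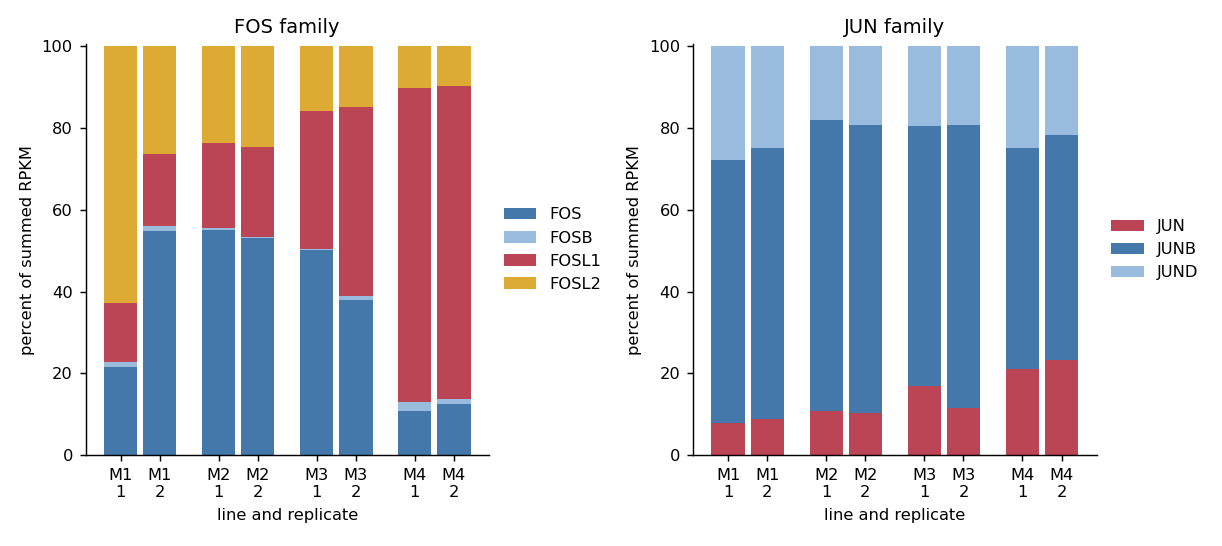
Share of each gene in the summed RPKM of the FOS family (left) and the JUN family (right), in percent, with 1 bar for each library. FOSL1 takes 76.7% and 76.5% of the FOS family in M4 against 14.3% and 17.7% in M1, while JUNB remains the largest part of the JUN family in all 8 libraries.

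The lines grown without EGF were also set as a pair against those grown with it, with each line weighted equally. In M3 and M4 against M1 and M2, FOSB (log2 difference 1.43 ± 0.294, adjusted p = 0.00991), FOSL1 (2.52 ± 0.138, adjusted p = 5.44e-05) and ATF3 (3.15 ± 0.285, adjusted p = 0.000375) were called higher, against 13.8% of all tested genes. JUN missed the 2-fold limit at 1.97-fold (adjusted p = 0.00299). The libraries of FOSB and JUN overlapped between the pairs, and ATF3 of M3 alone was not called against M1 or M2. FOS and EGR1 differed by 1.05- and 1.23-fold with adjusted p = 0.906 and 0.692. For FOS the pair joined unlike lines, with means of 114.1 CPM in M3 and 30.7 in M4. For EGR1 the standard error was wide, at 0.499 on the log2 scale. In a fit of 4 libraries against 4 with no term for line, added after the data were seen, FOSB was no longer called (adjusted p = 0.0668), and the call was also lost without M2 replicate 2 (0.051).

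Across the 8 libraries log2 CPM of JUN followed that of ATF3 with a Pearson r of 0.95, and FOSB that of ATF3 with 0.89, while FOS ran against JUND (-0.88) and FOSL1 ran with JUN (0.83). The r of EGR1 with the other members ran from -0.68 (FOSL2) to 0.26 (FOS and FOSL1). These are descriptions over 8 libraries of 4 lines, in which libraries of 1 line are not independent points. By the same measure over 13082 genes, the closest to FOSL1 were SMTN (r = 0.997), NIBAN2 (0.996) and ACOT7 (0.996). Closest to JUN were DCAF15 (0.991), MANCR (0.989) and STX11 (0.986), and closest to ATF3 were SPINK1 (0.993), NFKB2 (0.993) and CEACAM5 (0.992). SPINK1 was at 18.4 and 5.37 CPM in M4 and at most 0.253 CPM elsewhere, and NFKB2 at 129.9 and 135.5 CPM in M4 and at most 46.7 elsewhere. FOS was followed most closely by GIHCG (0.984), NDUFA4L2 (0.982) and APOBEC3C (0.981). For EGR1 the closest were ZC3H14 (0.944), MMP1 (0.936) and MAP6D1 (0.930), and MMP1, a collagenase gene, was likewise low in M1 replicate 1 (0.133 CPM, against 3.84 CPM in replicate 2).

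Other genes that dimerize with AP-1 proteins, the small MAF factors among them, changed in both directions. Of 11 listed genes 10 were tested, and in M4 against M1 4 were higher and 2 lower (60%, against 20.7% of all genes; list median 0.76, all genes -0.02). MAFF, a small MAF protein without an activation domain, was at 9.81 and 8.04 CPM in M1 and 65.1 and 48.8 in M4 (log2 difference 2.67 ± 0.232, adjusted p = 0.00035). JDP2, which represses AP-1 sites as a dimer with JUN, was at 14.9 and 11.7 CPM for M1, 8.75 and 9.07 for M2, 2.27 and 1.62 for M3 and 1.69 and 0.769 for M4 (M4 against M1 -3.42 ± 0.412, adjusted p = 0.00117). BATF3 was higher in M4 (1.93 ± 0.407, adjusted p = 0.0105). With the exchanged libraries the counts were 3 higher and 2 lower. In M3 against M2 MAFF was higher (2.07 ± 0.228, adjusted p = 0.004) and JDP2 lower (-2.19 ± 0.392, adjusted p = 0.0205), and with the exchange the counts were 1 higher and 0 lower. In M2 against M1 edgeR called none of the 10 (1 at an unadjusted p under 0.05), limma none and DESeq2 1.

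The EGR relatives and NAB corepressors, which bind EGR proteins and restrain them, passed the test once. Of 5 genes tested only EGR4 was called, in M4 against M1 alone (20% of the list, against 20.7% of all genes). Its log2 difference was 2.14 ± 0.681 (adjusted p = 0.0467), at 1.57 and 1.49 CPM against 0.205 and 0.488, and limma did not call it. EGR2 and EGR3, named after their values were seen, were like EGR1 lower in M1 replicate 1 than in replicate 2, at 0.169 and 2.74 CPM and at 2.26 and 7.41 CPM.

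Other immediate early genes, induced like FOS and EGR1 within minutes of a stimulus, included CCN2, NR4A1 and PTGS2 among those higher in M4. All 23 were tested. In M2 against M1 edgeR, DESeq2 and limma called none (3 at an unadjusted p under 0.05 in edgeR). In M3 against M1 4 were higher (17.4%, near the 13.5% of all genes), and 9 were higher and 2 lower in M4 against M1 (47.8%, against 20.7% of all genes; list median 0.81, all genes -0.02). CCN2, a matricellular protein gene, was at 2.68 and 4.03 CPM in M1 and 32.4 and 11.3 in M4 (2.70 ± 0.49, adjusted p = 0.00575). IER3 was at 21.1 and 87.0 CPM for M1, 76.9 and 78.9 for M2, 308.3 and 237.1 for M3 and 318.5 and 276.8 for M4 (M4 against M1 2.46 ± 0.568, adjusted p = 0.0165). NR4A1, a nuclear receptor gene, differed by 2.44 ± 0.42 (adjusted p = 0.00471). PTGS2, the inducible cyclooxygenase gene, had the largest log2 difference (4.32 ± 1.03, adjusted p = 0.0182), though its M4 libraries were at 22.8 and 2.02 CPM. Without M4 replicate 1 the list's counts in M4 against M1 were 5 higher and 1 lower, and with the exchanged libraries 8 and 1, while the 4 calls of M3 against M1 fell to 0 with the exchange (9 at an unadjusted p under 0.05). In M4 against M2 10 were higher and 1 lower, which became 3 and 1 without either M2 library.

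Of 12 MAP kinase, RSK and serum response factor genes, which carry growth factor signals to the FOS and EGR1 promoters, ELK3 was the only one called. ELK3 encodes an ETS factor that acts with serum response factor at CArG boxes, and it was at 20.8 and 20.3 CPM for M1, 43.7 and 42.8 for M2, 63.1 and 62.6 for M3 and 82.8 and 99.4 for M4. Its libraries did not overlap between lines and had the same order as those of FOSL1 (M4 against M1 2.15 ± 0.14, adjusted p = 0.00016). How many of all genes had this order was not counted. With the exchanged libraries ELK3 was called in none of the 6 comparisons of lines. By the labels, it made 8.33% of the list in M2, M3 and M4 against M1, where 3.37%, 13.5% and 20.7% of all genes were called. In M4 against M2 the shares were 8.33% and 13.9%. No gene of the list was called in M3 against M2 or M4 against M3, against 4.15% and 10.3% of all genes.

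Genes long described as AP-1 targets were listed separately, and 8 of 16 were higher and 1 lower in M4 against M1 (56.2%, against 20.7% of all genes; list median 1.38, all genes -0.02). CXCL8, the interleukin 8 gene, was at 1.11 and 1.95 CPM for M1, 5.65 and 4.72 for M2, 76.0 and 61.9 for M3 and 227.5 and 135.2 for M4 (M4 against M1 6.89 ± 0.397, adjusted p = 0.000113). HBEGF, which encodes a ligand of the EGF receptor, was at 5.22 and 8.34 CPM for M1, 14.4 and 15.0 for M2, 23.4 and 41.9 for M3 and 218.2 and 219.8 for M4 (5.01 ± 0.346, adjusted p = 0.000174). For both genes the libraries of the 4 lines did not overlap and were ordered M1, M2, M3, M4, as for FOSL1. With the exchanged libraries M1 and M2 overlapped in all 3, and how many of all genes had this order was not counted. PLAUR and PLAU, the urokinase receptor and urokinase genes, were higher in M4 by 3.04 ± 0.183 (adjusted p = 0.000128) and 2.64 ± 0.416 (adjusted p = 0.00362). PLAUR reached 81.4 and 64.9 CPM already in M3, whereas PLAU was at 32.2 and 30.3 CPM in M3 and 216.7 and 190.0 in M4. MMP13, a collagenase gene, was at 4.02 and 4.29 CPM in M2 and at most 0.0459 CPM in M3. In M3 against M1 6 were higher and 1 lower (43.8%, against 13.5% of all genes), and in M2 against M1 2 were higher (12.5%, against 3.37%). With the exchanged libraries edgeR called none in M2 against M1 (0 at an unadjusted p under 0.05), none in M3 against M1 (8 unadjusted), and 6 higher and none lower in M4 against M1.

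**Figure D4:**
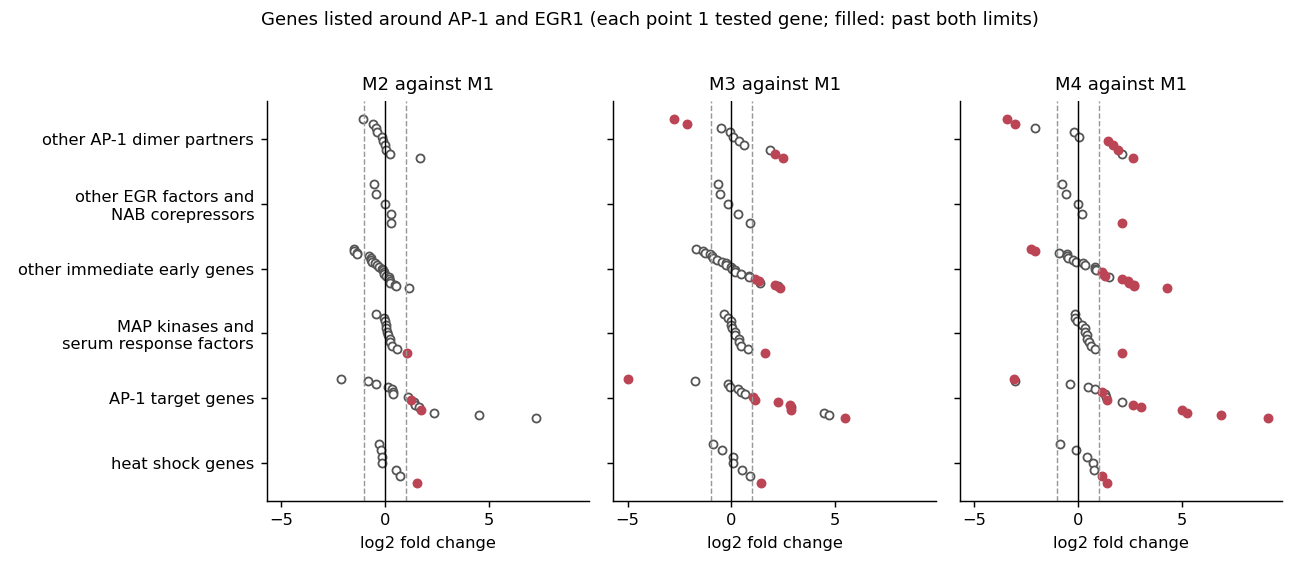
Log2 fold change of every tested gene of 6 lists against M1, with 1 point for each gene, filled where both limits were passed. In M4 against M1 the filled points of the AP-1 targets lie mostly to the right, and the rightmost is IL6 (named after its value was seen), whose M1 libraries are at 0, so its fitted value is no bound.

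Heat shock genes, a readout of general stress like ATF3, were listed as a check on handling. Of 7 genes 2 were higher in M4 against M1 (28.6%, against 20.7% of all genes), HSPA1A (1.41 ± 0.254, adjusted p = 0.00552) and HSP90AA1 (1.18 ± 0.236, adjusted p = 0.00836). HSPA1A was at 245.5 and 350.8 CPM in M4 and between 90.2 and 145.2 CPM in the other lines, but its near-identical copy HSPA1B, named after its values were seen and with which reads can be confused, was at 176.7 and 221.3 CPM in M4 and 231.9 and 194.5 in M1. HSP90AA1 was also called higher in M2 than in M1 (1.54 ± 0.238, adjusted p = 0.0145), but no gene of the list was called there with the exchanged libraries (0 at an unadjusted p under 0.05 in edgeR), without either M2 library or without M1 replicate 1. The summed level of the list was 4923 and 4996 CPM for M1 and 8784 and 8580 for M2. It was 7880 and 9441 CPM for M3 and 7273 and 8791 for M4, so by the labels it was above M1 in every other line. HSPA8 and HSP90AA1 were the largest terms of this sum, at 2090 to 4522 and 1115 to 3792 CPM, and other genes of the list did not all follow it. Log2 differences of M2 and M3 from M1 were -0.18 and 0.07 for HSPA1A, -0.30 and -0.43 for HSPA1B, and -0.16 and 0.08 for DNAJB1. HSPB1 was lower, at -0.14 for M2 and -0.88 for both M3 and M4, within the 2-fold limit. HSPH1 was higher, at 0.55, 0.49 and 0.79 for M2, M3 and M4, but was not called. The part of the heat shock genes in the ATF3 difference was not tested. Epithelial markers were also higher in M4 and, to a lesser degree, in M3. Their summed level was 5138 and 3372 CPM in M4, 2585 and 2429 in M3 and 1422 to 1877 in the M1 and M2 libraries. In M4 against M1 4 of the 5 were called higher (80%, against 20.7% of all genes). In M3 against M1 2 were, EPCAM and KRT18 (40%, against 13.5% of all genes). Of the basal markers, KRT5 (log2 difference -1.26), KRT14 (-2.37) and TP63 (-1.38) were called lower in M4 than in M1, and KRT14 was also called lower in M4 than in M3 (-5.24). Of the markers of other cell types, DCN was at 34.1 and 1.62 CPM in M1 and 0.167 and 0.0128 in M4, and CD14 at 24.6 and 14.3 CPM in M1 and 2.03 and 1.06 in M4. The part of these markers in the differences of M4 was not tested.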

How the data were processed

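Poly A+ RNA of 8 samples was sequenced as paired ends on an Illumina HiSeq. The authors trimmed reads with Trimmomatic, aligned them to hg19 with STAR and deposited expected counts per gene from RSEM with GENCODE annotation, with 12.8% of all values not whole. Whether strand was used in counting is not given in the sources used here. The 8 columns were matched to the labels by name, expected counts were rounded, and genes were kept by edgeR's filterByExpr. Differences were tested with edgeR 4.0.16 (TMM scaling, quasi-likelihood test, 1 mean per line fitted over all 8 libraries, Benjamini-Hochberg adjustment over all tested genes), in R 4.3.3. Calls needed an adjusted p under 0.05 and a log2 difference beyond 1. Standard errors (SE) were derived as the absolute log2 difference divided by the square root of the F value of the quasi-likelihood test. The study itself used a 2-fold limit in both replicates, kept here as an alternative. CPM used TMM library sizes, and RPKM the canonical transcript of the lifted GENCODE annotation on GRCh37. The procedure was tested on simulated counts.

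All 9 members were named in every comparison, with HRAS. From each list at most 4 genes per comparison were named, those called with the largest difference and at least 100 counts in each library of the higher line, and for 5 members the 3 genes with the highest correlation of log2 CPM. The members and lists were chosen with earlier results of these data known. By the labels, the deviations of same-numbered replicates had correlations of -0.057 to 0.049 between lines, except 0.212 for M3 and M4. The numbers were not taken to pair samples in the main fit. Alternatives were other scaling (DESeq2-type size factors, library totals), DESeq2 1.42.0, limma 3.58.1 with voom, no filter on low counts, no fold limit, the 2 lines alone, a replicate block, each library left out and the exchange of the doubted libraries. A fit without line terms and exon-union lengths were added after the data were seen. Some genes of the lists enter the counts but are not reported here by name.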

Additional observations from a re-analysis of the deposited data

How the results depend on the processing

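In all alternatives run, no difference of a member that was called changed sign. Of 792 values of member differences, 734 kept their side of the threshold, 31 lost and 27 gained a call. Members called moved in M2 against M1 (1) to 2 with DESeq2, limma or no low-count filter and to 0 with the exchanged libraries. In M3 against M1 (1) they moved to 2 with DESeq2, library totals or no filter and to 0 with the exchange. In M3 against M2 (1) they moved to 2 with DESeq2 or no filter and to 0 with the exchange, and in M4 against M3 (4) to 2 with the exchange. Leaving out each library in turn gave 0 to 3 (M2 against M1), 1 to 2 (M3 against M1), 3 to 5 (M4 against M1), 0 to 2 (M3 against M2), 3 to 4 (M4 against M2), 1 to 4 (M4 against M3) and 2 to 4 (M3 and M4 against M1 and M2).

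Over all genes the exchange took the calls from 622 to 0 in M2 against M1, 2494 to 219 in M3 against M1, 3821 to 1559 in M4 against M1, 765 to 214 in M3 against M2 and 1897 to 830 in M4 against M3. The 2-fold rule in both replicates, which has no error term, gave 3366, 4926, 6106, 3615, 5511 (from 2567) and 4752 in the order M2, M3 and M4 against M1, M3 and M4 against M2, and M4 against M3. DESeq2 gave 1273 in M2 against M1 and 1439 in M3 against M2, limma 1051 and 1494 in M2 and M3 against M1, and no filter 1788, 1880 and 2916 in M2 against M1, M3 against M2 and M4 against M3. Without the fold limit 3918, 5779, 4096, 3091 and 5331 genes were called in M3 and M4 against M1, M4 against M2, M4 against M3 and the pooled comparison. The 2 lines alone gave 1659 in M3 against M1, and 4 libraries against 4 gave 1018 (from 2536). Leaving out each library gave 0 to 876, 1752 to 2298, 2425 to 3651, 83 to 573, 927 to 1665, 598 to 1671 and 1690 to 2602 genes in the order M2, M3 and M4 against M1, M3 against M2, M4 against M2, M4 against M3 and pooled. M2 against M1 had 2 calls without M2 replicate 1 and 0 without M2 replicate 2 (2251 at an unadjusted p under 0.05 in edgeR, and 315 with the exchange). The cause of these changes was not tested, beyond fewer libraries in those left out.

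With the replicate number as a block, 587, 2338, 3628, 675, 2462, 1756 and 2425 genes were called in the same order, and among members the block ended both FOS calls (adjusted p = 0.0643 in M4 against M2 and 0.0552 in M4 against M3) and put FOSL1 in M4 against M3 past the limit (1.00, adjusted p = 0.0144). It changed no other member's call. The 2-fold rule and the fit of only 2 lines were not run for the pooled comparison, and protein identity was not run. No member had under 100 counts in any library.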
